A study of Homo sapiens with 6 samples.

Results

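The integrin alpha and beta subunits described here are 10 genes, ITGA2, ITGA3, ITGA5, ITGA6, ITGAV, ITGB1, ITGB3, ITGB4, ITGB5 and ITGB6, taken by gene symbol from a table of 29476 genes. They were measured by RNA sequencing in A549, an established human lung adenocarcinoma cell line. All cells received an siRNA by lipid transfection, either a negative control (si-NC, 3 libraries numbered 4, 5 and 6) or one that targets NORAD, a long noncoding RNA (si-NORAD, 3 libraries with the same numbers). The question is which integrin pairs these cells can form from their transcripts and whether the subunits differ between the treatments. The sources used here give neither the time from transfection to harvest nor the siRNA sequences, and the results come from 1 cell line. Nothing in the labels tells separate cultures from repeat libraries, so a p-value measures only how far these libraries spread, which could be technical. Values of a group are listed in the order of its libraries 4, 5 and 6. In bulk RNA, fewer cells with a transcript and less of it per cell cannot be told apart.

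Integrins are the main receptors by which cells grip the extracellular matrix. Each receptor is a pair of 1 alpha and 1 beta chain, and the chains reach the cell surface only as pairs, so a receptor needs both transcripts. The alpha chain largely sets the ligand: alpha2 binds collagen, alpha3 and alpha6 bind laminins, alpha5 binds fibronectin, and alphaV binds proteins with an RGD motif, among them vitronectin and the latent form of TGF-beta. The beta chain carries the tail that talin and kindlin bind to link the receptor to actin, except that the long tail of beta4 binds plectin and ties the cell to keratin filaments in hemidesmosomes.

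Total counts ran from 19332334 to 32760606 per library. NORAD, the targeted RNA, was at 548.9, 460 and 423 CPM (counts scaled to the library size, with TMM factors) in the controls against 359, 371 and 399 CPM with si-NORAD. Its groups did not overlap in CPM, though in FPKM si-NORAD 6 (76.4) lay above si-NC 6 (75.9), and the difference (log2 fold change -0.34) did not pass in edgeR (adjusted p = 0.196). The control libraries differed among themselves. Over all genes tested, the median absolute log2 difference was 0.10 to 0.11 between si-NC 4 and each si-NORAD library, 0.20 between si-NC 4 and si-NC 5, and 0.28 between si-NC 4 and si-NC 6. On a list of lung epithelial and adenocarcinoma line markers, KRT8 was at 385 FPKM or more and ALDH1A1 at 1469 FPKM or more in every library. KRT7, KRT18, AKR1B10 and ALDH3A1 on that list were at 198 FPKM or more. Its other genes were low, with KRT19 at 0.777 to 1.11, EPCAM at 1.33 to 2.32 and CDH1 at 3.54 to 4.71 FPKM. The extraction protocol in the labels names retina, yet the photoreceptor genes CRX, RCVRN and SAG stayed at or under 0.0291 FPKM (of the retina list only OPN1SW passed 1 FPKM, at up to 4.67), and the leukocyte gene PTPRC at or under 0.00564 FPKM. CD14, on the leukocyte list too, was at 2.75 to 5.55 FPKM.

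The transcripts of ITGB1 and ITGA3 were far above those of the other subunits. On the length-corrected scale of FPKM (fragments per kilobase of exon, scaled to the library size), ITGB1, the beta chain shared by most matrix receptors, ran from 140 to 203 over the 6 libraries. ITGA3, the alpha chain of a laminin receptor, ran from 100.05 to 140. The 2 ranges came close without meeting, at 139.76 for the highest ITGA3 value and 140.41 for the lowest ITGB1 value. On this scale ITGB1 was above ITGA3 in every library. Next in FPKM came ITGB5, an alphaV partner, at 52.2 to 55.6, then ITGB4 at 34.6 to 40.4 and ITGAV at 19.2 to 31.3. ITGA6, the partner of beta4, ran from 13.5 to 18.1 FPKM, ITGA5 from 8.70 to 10.98 and ITGA2 from 4.395 to 8.64. ITGB6, an epithelial alphaV partner, was near the bottom at 1.39 to 2.26 FPKM. ITGB3, which pairs with ITGAV or ITGA2B, was at 0.304 to 0.5001 FPKM. This order was the same in si-NC and si-NORAD by group means, and no subunit's range crossed that of its neighbour.

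**Figure D1:**
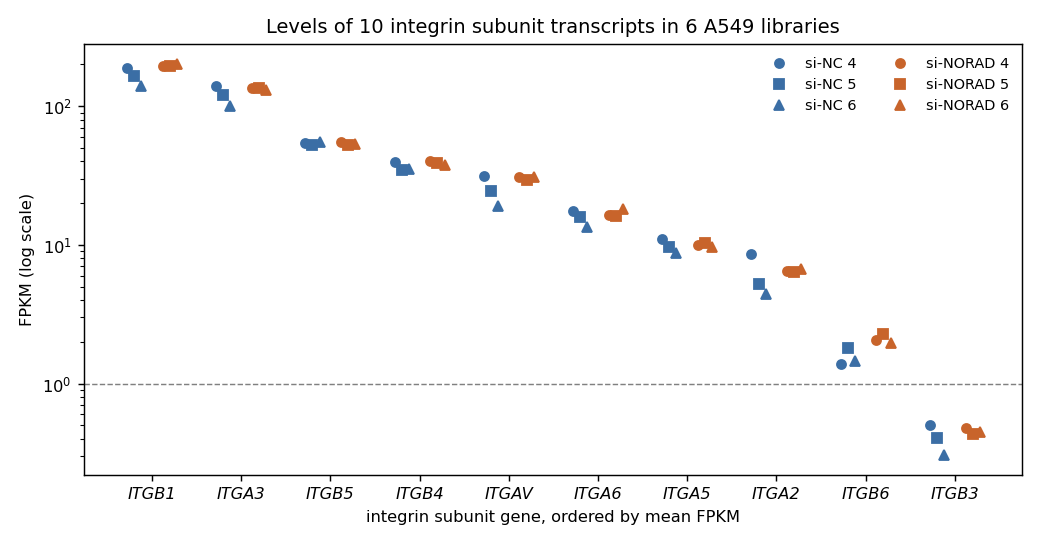
FPKM (log axis) of each subunit in each library, ordered by mean, with si-NC in blue and si-NORAD in orange and a dashed line at 1 FPKM. ITGB1 and ITGA3 lie at 100.05 FPKM or more in every library, and ITGB3 is the 1 subunit under the line.

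Of 24 alpha-beta pairs known in humans, 9 had both transcripts at 1 FPKM or more in all 6 libraries, and 8 of these are made of the 10 subunits alone. They cover collagen (ITGA2 with ITGB1), laminin (ITGA3 or ITGA6 with ITGB1, and ITGA6 with ITGB4), fibronectin (ITGA5 with ITGB1) and RGD ligands (ITGAV with ITGB1, ITGB5 or ITGB6). The ninth was ITGA10 with ITGB1, a collagen receptor. Of the rest, 14 pairs had a subunit under 1 FPKM in some library, ITGAV with ITGB3 among them, and ITGA8 was not in the table. ITGB8, the remaining alphaV partner, reached at most 0.0747 FPKM, and ITGB2, the leukocyte beta chain, at most 0.337 FPKM. These are transcript levels, and protein and surface pairs were not measured.

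Within the ITGB1 receptors the alpha chain was the scarcer transcript in FPKM for every alpha. For ITGA3 this rests on the length correction, with 9802 exonic bases against 6011 for ITGB1. By reads ITGA3 was above ITGB1 in every library, and the lengths of the transcripts these cells express were not measured. ITGA3 made up 66.2%, 67.7% and 67.7% of the summed FPKM of the 11 measured alpha partners of ITGB1 in the controls against 66.8%, 67.6% and 65.3% with si-NORAD. ITGAV followed with 12.97% to 15.6%, then ITGA6 with 8.01% to 9.12%, ITGA5 with 4.82% to 5.89% and ITGA2 with 2.93% to 4.09%. The laminin-binding ITGA3 was therefore the majority alpha transcript under both siRNAs, and its share overlapped between them. The share of ITGA5, the fibronectin receptor's alpha chain, did not overlap between the groups (5.51% ± 0.348 in si-NC and 4.97% ± 0.170 in si-NORAD, SD, n = 3 each). The shares of ITGAV, ITGA6 and ITGA2 overlapped. The level of ITGA5 itself also overlapped (log2 fold change -0.03), and its share depends on the other alphas in the sum. The summed alpha partners over ITGB1 came to 1.12, 1.07 and 1.05 in the controls against 1.03, 1.04 and 0.980 with si-NORAD, so the alpha total stood slightly lower against ITGB1 in all si-NORAD libraries. Of the other ratios computed, ITGB5 over ITGB6 and ITGB1 over ITGB4 also did not overlap between the groups, and the rest overlapped. How often ratios of other genes lack overlap is not given. These ratios are descriptions and were not tested.

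ITGB4, which pairs with ITGA6 alone, exceeded it in every library. The ratio of ITGB4 to ITGA6 in FPKM was 2.23, 2.18 and 2.64 in the controls against 2.44, 2.43 and 2.09 with si-NORAD, and the groups overlapped. ITGB5 likewise exceeded ITGAV, with ratios of 1.73, 2.17 and 2.90 in the controls against 1.78, 1.77 and 1.72 with si-NORAD. The si-NORAD values and si-NC 4 lay close together there, and si-NC 5 and si-NC 6 lay above them. ITGA6 and ITGAV are thus the scarcer transcripts of ITGA6 with ITGB4 and of ITGAV with ITGB5.

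**Figure D2:**
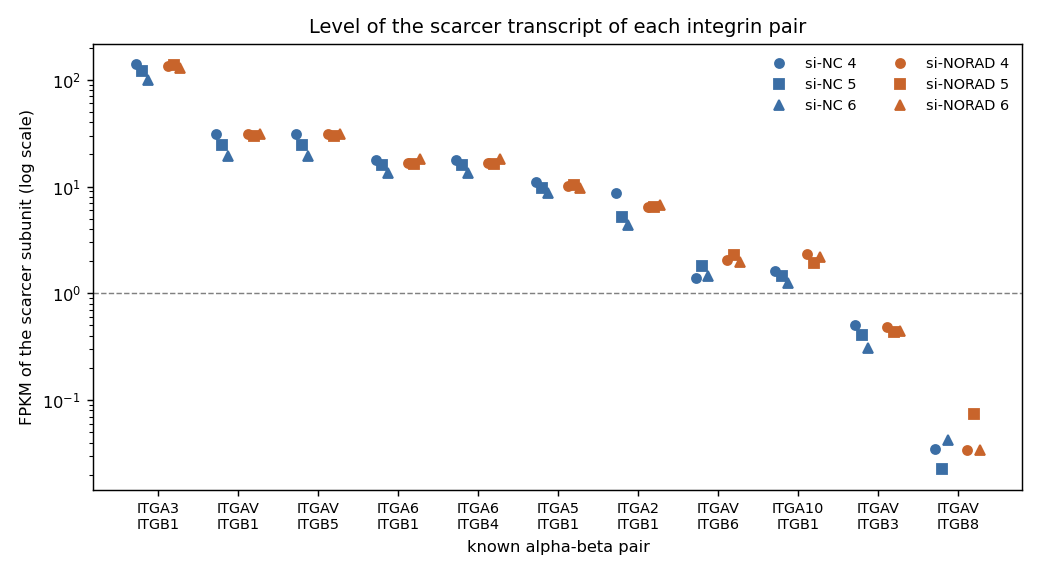
FPKM (log axis) of the scarcer subunit of each pair in each library, for the 9 pairs with both transcripts at 1 FPKM or more (dashed line) and for ITGAV with ITGB3 or ITGB8; si-NC is blue and si-NORAD orange. ITGA3 with ITGB1 leads at 100.05 FPKM or more, and the groups separate for ITGAV with ITGB6 and ITGA10 with ITGB1.

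All 10 subunits passed the low-count filter, and 0 of the 10 passed the test between si-NORAD and si-NC in edgeR's quasi-likelihood fit, where 0.00645% of the 15515 genes tested were called. DESeq2 (2.46% of all genes called) and limma-voom (0.0129%) also called 0 of the 10. DESeq2 gave no adjusted p for ITGB3, so it could not call that subunit. At an unadjusted p under 0.05 there was 1 subunit, ITGB6, where 21.6% of all genes tested lay. Of the 10, 8 had a log2 fold change above 0, with a median of 0.08, where 50.9% of all genes were above 0 with a median of 0.0055. Without si-NC 6 only 4 of the 10 were above 0, against 49.8% of all genes. The groups did not overlap for 2 of the 10, ITGB1 and ITGB6, both higher in si-NORAD, where 12.7% of all genes had every si-NORAD value higher. Read against it, 2 of 10 is no result about these genes as a group.

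Among the beta chains, ITGB1 (ENSG00000150093, chr10:32900319-33005792 of GRCh38, minus strand) was at 1111, 1041 and 880 CPM in the controls against 1156, 1144 and 1195 CPM with si-NORAD. Every si-NORAD library was above every si-NC library, although si-NC 4 was nearer to the si-NORAD libraries than to si-NC 6. The means were 1011 ± 118 and 1165 ± 26.5 CPM (SD, n = 3 each). The log2 fold change was 0.20 (SE 0.10), with a 95% confidence interval from -0.03 to 0.44 (edgeR adjusted p = 0.271).

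ITGB6 (ENSG00000115221, chr2:160099666-160200313, minus strand) encodes the beta chain of the alphaVbeta6 receptor, which activates latent TGF-beta in epithelia. It was at 6.37, 8.77 and 7.12 CPM in the controls against 9.51, 10.4 and 8.96 CPM with si-NORAD. The lowest si-NORAD library was just above si-NC 5, and si-NC 4 was the lowest of all. The means were 7.42 ± 1.23 and 9.62 ± 0.720 CPM (SD, n = 3 each). The log2 fold change of 0.37 (SE 0.14, interval 0.06 to 0.69) was the largest of the 10 and did not pass (edgeR adjusted p = 0.204). At these levels ITGB6 rested on 136 to 318 reads per library. Of its 4687 exonic bases, 966 are shared with AC092153.1, a transcript of the same strand with 24 to 63 counts, and its part in the ITGB6 value was not tested.

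ITGB4 (ENSG00000132470, chr17:75721328-75757818, plus strand) was at 261, 244 and 250 CPM in the controls against 268, 259 and 251 CPM with si-NORAD. ITGB5 (ENSG00000082781, chr3:124761948-124901418, minus strand) was at 342, 356 and 374 CPM in the controls against 346, 329 and 337 CPM with si-NORAD. The groups overlapped for both. These were the 2 most tightly estimated beta chains, with log2 fold changes of 0.04 for ITGB4 (interval -0.12 to 0.21) and -0.08 for ITGB5 (interval -0.25 to 0.09), and edgeR adjusted p of 0.738 and 0.527. ITGB3 (ENSG00000259207, chr17:47253846-47311816, plus strand), with 29 to 69 reads per library, was at 2.15, 1.86 and 1.39 CPM in the controls against 2.06, 1.85 and 1.92 CPM with si-NORAD. Its interval, -0.36 to 0.59 around 0.11, was the widest of the subunits (edgeR adjusted p = 0.764). Of its 4394 exonic bases, 2266 are shared with the readthrough gene AC068234.1 on the same strand, whose part in the low ITGB3 level was not tested.

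The laminin-binding alpha chains overlapped between the groups. ITGA3 (ENSG00000005884, chr17:50055968-50090481, plus strand) was at 1342, 1235 and 1023 CPM in the controls against 1303, 1306 and 1247 CPM with si-NORAD. Its si-NC 4 value was the highest of the 6 and its si-NC 6 value the lowest, with a log2 fold change of 0.10 (interval -0.15 to 0.35, edgeR adjusted p = 0.60). ITGA6 (ENSG00000091409, chr2:172427354-172506282, plus strand) was at 113, 108 and 91.7 CPM in the controls against 106, 103 and 116 CPM with si-NORAD. Again si-NC 6 was lowest, and the log2 fold change was 0.06 (interval -0.16 to 0.27, edgeR adjusted p = 0.746).

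ITGAV (ENSG00000138448, chr2:186590065-186680901, plus strand), the alpha chain of the RGD receptors, was at 252, 208 and 164 CPM in the controls against 248, 237 and 249 CPM with si-NORAD. The si-NC libraries spread over more than the whole si-NORAD range, with si-NC 4 above all si-NORAD libraries and the other 2 below. The means were 208 ± 43.9 and 245 ± 6.68 CPM (SD, n = 3 each), and ITGAV had a log2 fold change of 0.23 (SE 0.14, interval -0.08 to 0.54, edgeR adjusted p = 0.33).

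The collagen and fibronectin receptors' alpha chains did not separate either. ITGA2 (ENSG00000164171, chr5:52989326-53094779, plus strand) was at 66.9, 43.1 and 36.2 CPM in the controls against 50.03, 49.3 and 51.9 CPM with si-NORAD. It had the widest si-NC spread of the alpha chains relative to its level, with a log2 fold change of 0.05 (interval -0.38 to 0.48, edgeR adjusted p = 0.90). ITGA5 (ENSG00000161638, chr12:54395261-54419460, minus strand) was at 81.5, 76.7 and 68.7 CPM in the controls against 74.4, 77.0 and 71.1 CPM with si-NORAD. The log2 fold change was -0.03, with an interval from -0.22 to 0.17 (edgeR adjusted p = 0.859). The intervals of this fit leave out a change of 2-fold in either direction for each of the 10 subunits.

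The spread among the subunits' values sat mainly in the si-NC group. All 10 had a larger SD in si-NC than in si-NORAD, by little for ITGB4 (8.69 against 8.30 CPM). The wider si-NC spread was not particular to the subunits. Over all genes tested the median absolute log2 difference was 0.16 to 0.28 between si-NC libraries and 0.08 to 0.09 between si-NORAD libraries. The shares of all genes behind the counts in this paragraph are not given. Of the 10, 7 had their lowest value in si-NC 6 (ITGA2, ITGA3, ITGA5, ITGA6, ITGAV, ITGB1 and ITGB3), and 5 had their highest in si-NC 4 (ITGA2, ITGA3, ITGA5, ITGAV and ITGB3). The median subunit lay 0.10 above its 6-library mean in log2 CPM in si-NC 4, 0.00024 above in si-NC 5 and at -0.26 in si-NC 6, against 0.07, 0.03 and 0.07 in si-NORAD 4, 5 and 6. Against the range of the 3 si-NORAD libraries, si-NC 6 was below for 9 subunits and above for ITGB5, whereas si-NC 4 was above for 5, within for 3 and below for ITGB1 and ITGB6.

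**Figure D3:**
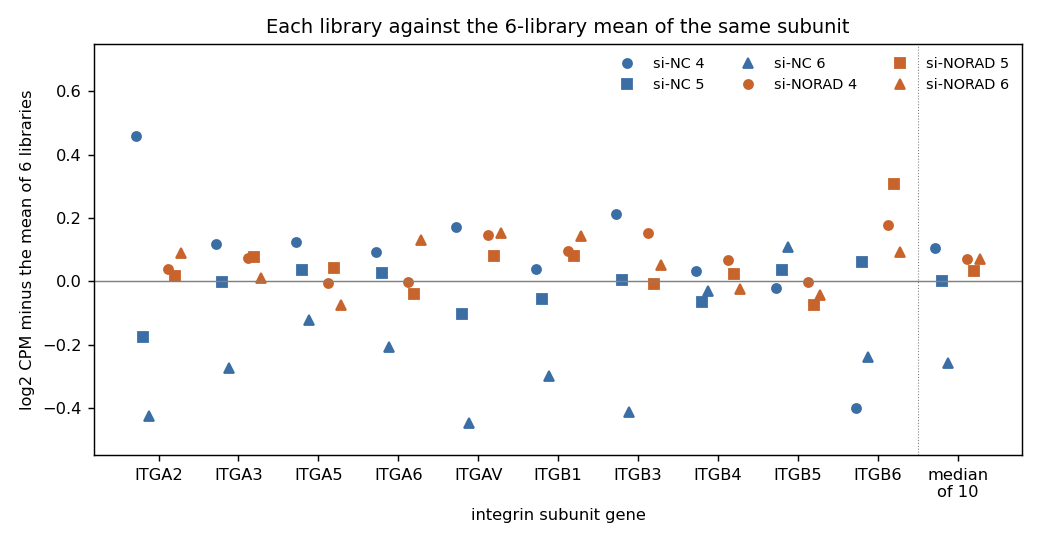
Log2 CPM of each subunit in each library minus the mean of its 6 libraries, with the median over the 10 subunits at the right; si-NC is blue, si-NORAD orange, and marker shapes give the library number. The si-NC 6 triangles are the lowest points for 7 subunits, and the ITGB5 triangle of si-NC 6 is instead the highest.

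Gene length moved with this pattern. Integrin transcripts are long: 9 of the 10 subunits are above the median length of the genes tested, 4639 bases, and ITGA2, ITGA3, ITGA5 and ITGAV are in the longest quartile. Over the 3879 genes of that quartile the median log2 deviation was 0.07 in si-NC 4, -0.09 in si-NC 5 and -0.20 in si-NC 6, and 0.07 to 0.09 in the si-NORAD libraries. Of these genes 76.3% had a log2 fold change above 0, with a median of 0.15, against 32.2% and a median of -0.17 in the shortest quartile. In a fit that removed each library's trend over gene length, 4 of the 10 subunits were above 0, against 45% of all genes, with a median of -0.03 where the median of all genes was also -0.03. ITGB6 (0.36) and ITGB1 (0.15) still did not overlap between groups in that fit, where 9.67% of all genes had every si-NORAD value higher. ITGA5 (-0.13) did not overlap there either, with every si-NORAD value lower, as in 15.5% of all genes, while ITGAV was at 0.12 and ITGA3 at -0.06.

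Which si-NC libraries were used set the calls. Without si-NC 4, edgeR called 4 of the 10 subunits, all higher in si-NORAD, where 39.3% of genes tested were called and 19% were called higher. They were ITGAV (log2 fold change 0.39, adjusted p = 0.00223), ITGB1 (0.28, 0.00432), ITGA2 (0.34, 0.0044) and ITGA3 (0.19, 0.0471). The groups did not overlap for 6 subunits that were higher and 1 that was lower, against 29.9% and 30.2% of all genes. With si-NC 4 as the sole control, edgeR called 3.23% of all genes (1.59% higher, 1.64% lower), ITGB6 as higher (0.60, adjusted p = 0.00915) and ITGA2 as lower (-0.41, adjusted p = 4.39e-08). The lone si-NC library is assumed there to vary like the si-NORAD libraries, so that p does not measure the spread among controls. In that fit ITGAV (-0.04) and ITGA3 (-0.06) turned and ITGB1 was at 0.07. ITGA2 was thus called in opposite directions by the 2 fits. Without si-NC 6 the log2 fold change was 0.09 for ITGAV and 0.11 for ITGB1, and edgeR called 0 of the 10. ITGB1 and ITGB6 kept a log2 fold change above 0 in all 18 fits run. It ran from 0.07 to 0.28 for ITGB1 and from 0.27 to 0.60 for ITGB6. ITGB5 stayed below 0 in all 18, from -0.16 to -0.019. The fits reuse the same libraries, and the share of all genes that kept 1 direction is not given.

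**Figure D4:**
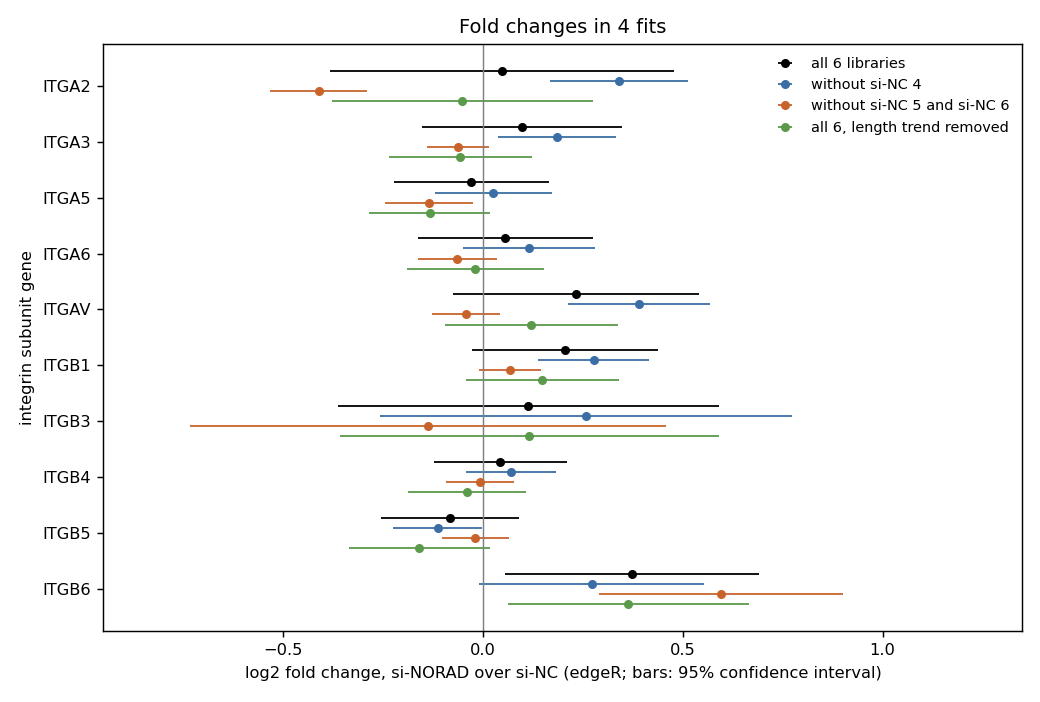
Log2 fold change of si-NORAD over si-NC with its 95% confidence interval in 4 edgeR fits: all 6 libraries (black), without si-NC 4 (blue), si-NC 4 as the sole control (orange), and all 6 with the length trend removed (green). ITGB1 and ITGB6 lie right of 0 and ITGB5 left of 0 in each fit. ITGA2 lies at 0.34 in blue and -0.41 in orange.

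NORAD binds Pumilio proteins, which recognise the RNA element TGTANATA (N is any base) and lower the stability of the RNAs that carry it. The element was searched on the sense strand of the longest annotated 3' UTR of each subunit. At least 1 was held by 5 of the 10, against 29.6% of the 12950 tested genes with a 3' UTR. ITGA2 held 5 in 4180 bases and ITGAV 2 in 3609 bases, while 54.6% and 50.3% of tested genes with UTRs of similar length held any. ITGA3, ITGB3 and ITGB5 held 1 each, and ITGA5, ITGA6, ITGB1, ITGB4 and ITGB6 held none. The matches in ITGA2, ITGAV, ITGA3 and ITGB5 are shown with 8 bases on each side (GENCODE 29 transcripts, GRCh38, 5′ to 3′), the element in capitals, because NORAD was the RNA targeted and these are the letters its Pumilio partners recognise. A match describes letters only, and no binding was measured.
ITGA2 at chr5:53091722-53091745, plus strand: tgaattacTGTATATAaactcctt
ITGA2 at chr5:53093132-53093155, plus strand: actgtataTGTAAATActagcttt
ITGA2 at chr5:53094346-53094369, plus strand: agccattaTGTAAATAaagtttca
ITGA2 at chr5:53094403-53094426, plus strand: aatatgaaTGTATATAttgcataa
ITGA2 at chr5:53094431-53094454, plus strand: gttagaatTGTATATAttttaaag
ITGAV at chr2:186677540-186677563, plus strand: ttattcaaTGTATATAagacaggt
ITGAV at chr2:186680024-186680047, plus strand: aaaagtatTGTATATAatagatca
ITGA3 at chr17:50090427-50090450, plus strand: gccttcttTGTATATAggcttctc
ITGB5 at chr3:124762084-124762107, minus strand: tcatcttgTGTAAATAtgatgaaa

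The other human integrin subunits were low. Of 16 listed, 15 were in the table, 12 were tested and 0 were called in edgeR (3 at an unadjusted p under 0.05), with 6 above and 6 below 0. Over all genes tested, 0.00645% were called and 21.6% lay under that unadjusted p. Only ITGA10 and ITGAE stood at 1 FPKM or more in every library. ITGA10, a collagen-binding partner of ITGB1, was at 10.1, 9.66 and 8.22 CPM in the controls against 14.5, 11.8 and 13.5 CPM with si-NORAD, without overlap (log2 fold change 0.51, SE 0.12, edgeR adjusted p = 0.196). ITGAE, the alpha chain of a lymphocyte receptor for E-cadherin, was at 15.9, 19.1 and 26.4 CPM in the controls against 12.9, 11.03 and 12.5 CPM with si-NORAD (log2 fold change -0.75, SE 0.18, edgeR adjusted p = 0.196). DESeq2 called both ITGA10 (0.51, adjusted p = 0.0371) and ITGAE (-0.76, adjusted p = 0.011). EdgeR called both without si-NC 4 (0.57 and -0.90, adjusted p = 0.00275 and 0.000178), where 39.3% of all genes were called, and with si-NC 4 as the sole control (0.41 and -0.38, adjusted p = 0.0477 and 0.041), where 3.23% were; these fits share the 3 si-NORAD libraries. The known partner of ITGAE, ITGB7, was listed at 0 in si-NC 6 and at most 0.0737 FPKM elsewhere. ITGAE shares 427 exonic bases with HASPIN on the opposite strand (354 to 667 counts), and the sources used here do not say whether the counting used strand.

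Matrix ligands of these receptors were measured from a list of 24, of which 22 were tested and 0 called in edgeR (4 at an unadjusted p under 0.05), with 15 above and 7 below 0 and a median of 0.09. Of all genes tested, 0.00645% were called and 21.6% lay under that unadjusted p. LAMB1 and CCN1 had the highest mean FPKM of the list. Of the laminin chains, LAMB1 was at 70.1 ± 12.0 FPKM in si-NC and 78.7 ± 0.325 FPKM in si-NORAD, LAMC1 at 60.6 ± 18.1 and 74.5 ± 2.26 FPKM, and LAMA5 at 52.9 ± 13.9 and 64.1 ± 1.56 FPKM (SD, n = 3 each). Together these 3 chains make laminin-511, a ligand of alpha3beta1 and alpha6beta1. The epithelial laminin chains LAMA3 (4.81 ± 1.47 FPKM in si-NC and 6.93 ± 0.106 FPKM in si-NORAD) and LAMB3 (3.89 ± 0.213 and 3.70 ± 0.227 FPKM) were far below these. CCN1, a matricellular ligand, was at 73.1 ± 7.48 and 72.3 ± 4.07 FPKM.

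TNC, which encodes tenascin-C, LAMA3 and COL1A1 were the 3 ligands tested whose groups did not overlap, all higher in si-NORAD. These are 3 of 22, where 12.7% of all genes had every si-NORAD value higher. Their log2 fold changes were 0.73, 0.48 and 0.38 (edgeR adjusted p = 0.196, 0.198 and 0.204). In CPM, si-NC 4 lay near the lowest si-NORAD value for LAMA3 (92.8 against 98.3) and COL1A1 (9.64 against 10.02). TNC was at 17.8, 14.2 and 9.09 CPM in the controls against 21.2, 22.3 and 24.7 CPM with si-NORAD. For the RGD receptors, FN1 was at 158 ± 32.3 and 177 ± 19.1 CPM, TGFB1 at 181 ± 14.1 and 181 ± 3.90 CPM, and VTN, whose vitronectin is a ligand of alphaVbeta5, at 0.542 ± 0.174 and 0.427 ± 0.204 CPM (SD, n = 3 each). The fibronectin and TGF-beta transcripts thus had many more reads than VTN, which rested on few reads.

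Of 22 genes that activate integrins or link them to actin, 20 were tested and 0 called in edgeR (5 at an unadjusted p under 0.05), with 13 above and 7 below 0 and a median of 0.14. The shares over all genes tested were 0.00645% called and 21.6% under that unadjusted p. TLN1, the talin that binds beta tails, was at 369, 290 and 231 CPM in the controls against 398, 369 and 375 CPM with si-NORAD, where si-NC 4 lay almost at the lowest si-NORAD value (log2 fold change 0.36, edgeR adjusted p = 0.219). TNS3, a tensin of fibrillar adhesions, was at 531, 430 and 402 CPM in the controls against 620, 599 and 611 CPM with si-NORAD (0.43, edgeR adjusted p = 0.196). APBB1IP, the talin recruiter RIAM, had a log2 fold change of 0.31 (edgeR adjusted p = 0.196). The most abundant members per length, SRC, a kinase of adhesion signalling, and VCL, the vinculin that strengthens the talin link, had log2 fold changes of 0.12 and 0.37, and their groups overlapped. ILK, at 7 to 25 counts, was not tested; it shares 2374 of its 3484 exonic bases with TAF10 on the opposite strand.

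Among 13 genes that inhibit integrins or carry them through endosomes, 12 were tested and 0 called in edgeR (4 at an unadjusted p under 0.05), with 5 above and 7 below 0 and a median of -0.11. For all genes tested the shares were 0.00645% called and 21.6% under that unadjusted p. ITGB1BP1, the ICAP-1 protein that competes with activators for the beta1 tail, was at 67.8, 80.9 and 91.6 CPM in the controls against 61.8, 63.9 and 64.6 CPM with si-NORAD (log2 fold change -0.34, edgeR adjusted p = 0.196). FLNA, a filamin that competes with talin, was at 2445 ± 481 and 3187 ± 85.6 CPM (0.38, edgeR adjusted p = 0.203). RAB11A and SNX17, which return integrins to the surface, had log2 fold changes of -0.21 and -0.18. The groups did not overlap for these 4 genes, which for FLNA, ITGB1BP1 and RAB11A was a condition of being named.

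Lateral partners and hemidesmosome proteins made a list of 14, all tested, with 0 called in edgeR (6 at an unadjusted p under 0.05), 4 above and 10 below 0 and a median of -0.23. Across all genes tested, 0.00645% were called and 21.6% lay under that unadjusted p. The 2 plakins that bind the beta4 receptor were higher in si-NORAD by value, with PLEC at 1514, 1092 and 834 CPM in the controls against 1586, 1497 and 1477 CPM with si-NORAD (log2 fold change 0.41, edgeR adjusted p = 0.239) and DST at 143 ± 52.4 and 210 ± 10.6 CPM (0.55, edgeR adjusted p = 0.21). PLEC in si-NC 4 lay within the si-NORAD range. DST was at 197.3, 139 and 92.8 CPM in the controls against 217, 197.9 and 215 CPM with si-NORAD. Its si-NC 4 value thus lay just below the lowest si-NORAD value. CD151, the tetraspanin tied to alpha3 and alpha6 integrins, had a log2 fold change of -0.26 with overlapping groups. The tetraspanins CD9 (-0.45, edgeR adjusted p = 0.196) and CD82 (-0.48, edgeR adjusted p = 0.201) did not overlap, a condition of their being named. CAV1 and BSG, the most abundant members per length, had log2 fold changes of 0.13 and -0.20. These lists depended on the same controls as the subunits. Without si-NC 4, where edgeR called 19% of all genes higher and 20.3% lower, it called 9 ligands higher and 1 lower, 10 activators and linkers higher and 2 lower, 2 inhibitors or traffic genes higher and 5 lower, and 3 lateral partners higher and 9 lower. With si-NC 4 as the sole control the genes it called included TNC and TNS3 as higher and CRK, TNS1, EHD1 and CD9 as lower; CRK, TNS1 and EHD1 were chosen for naming after their values were seen. The medians in that fit were -0.07 for the ligands, 0.03 for the linkers, -0.04 for the inhibitors and 0.0036 for the lateral partners. In the fit that removed the length trend they were -0.00088, 0.02, -0.15 and -0.27.

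Over all 9599 other tested genes at 10 CPM or more, the 3 whose 6 values were nearest to those of ITGB1 were CALD1, which encodes caldesmon, PCM1 and EXOC5. The measure was the root mean square difference of log2 CPM centred on each gene's mean, which came to 0.02 for each of them. CALD1 was at 216, 199 and 170 CPM in the controls against 229, 224 and 230 CPM with si-NORAD. Among the subunits the nearest to ITGB1 was ITGA3 (0.07, rank 725), followed by ITGA6 (0.08) and ITGAV (0.09), while ITGA2 (0.19) and ITGB5 (0.20) were the farthest of those at 10 CPM or more. All 6 points come from the same libraries, so this likeness includes the si-NC spread described above.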

How the data were processed

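RNA from 6 A549 libraries was ribosome-depleted and made into strand-marking libraries, per the labels' protocols. The submitters' processing notes name FastQC, HISAT2 and HTSeq 0.6.1 with build GRCh38. The authors deposited whole-number counts per gene and FPKM values. Count over FPKM gave 1 length per gene within 0.1% for 100% of values, equal to the exonic length in GENCODE 29 for each subunit. Columns of other samples numbered 0.

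Counts were tested with edgeR 4.0.16 (R 4.3.3): filterByExpr, TMM scaling, robust quasi-likelihood F test, two-sided, no covariate, on 15515 genes, with Benjamini-Hochberg adjustment over all of them and a call at adjusted p under 0.05. CPM values use TMM-scaled library sizes. The fit was tested on simulated data with the same dispersion in both groups and no length trend. It called 62% of 1.5-fold and 81% of 2-fold changes, with 8 false calls over 15515 genes. Those libraries lack the si-NC spread seen here, so the shares do not measure what this fit would miss. At these depths 1 count is 0.0305 to 0.0517 CPM. Levels between genes are compared in FPKM.

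Alternatives were RLE scaling, no filter, 1 CPM in 3 libraries, DESeq2 1.42.0, limma-voom and limma 3.58.1 on log2(FPKM + 1) or log2(FPKM + 0.1) (at least 0.5 FPKM in 3 libraries, or no filter), the replicate number as a block, removal of each library's loess trend over gene length (span 0.3), and leaving out libraries. FPKM minimums other than 1 for pairs were chosen after seeing the data. The members, gene lists and tests were chosen with earlier results of these data known. Named genes are the 10 subunits, NORAD, other integrin subunits at 1 FPKM or more or partnering a member, ligands of measured pairs, beta4 partners, and from each list, with none called, the 3 largest changes without overlap at 5 CPM or more and the 2 highest FPKM, plus the 3 genes nearest to ITGB1. Beside this rule, ILK and marker genes were named after their values were seen. Results for 2 of the listed genes are not reported here.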

Additional observations from a re-analysis of the deposited data

How the results depend on the processing

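The labels number the libraries 4 to 6 in both groups. Deviations from the group means in same-numbered libraries correlated at -0.02, -0.0047 and -0.07 across genes, so the numbers were not taken as pairs; with the replicate block, edgeR called 2 genes in all and 0 subunits. The 1 gene called in all by edgeR became 2 with limma-voom, 3 with log2(FPKM + 1) and 3 with log2(FPKM + 0.1), 5 with the length trend removed, 382 with DESeq2, 1935 without the low-count filter and 529 with si-NC 4 as the sole control, and ran from 0 to 6251 with 1 library left out. DESeq2 and the fit without the low-count filter called 0 of the 10 subunits; subunits called ran from 0 to 4 with 1 library left out and were 2 with si-NC 4 as the sole control. Subunits without overlap ran from 2 to 7 with 1 library left out. The 7 came without si-NC 4, a fit comparing fewer libraries. In that fit 29.9% of all genes were higher without overlap and 30.2% lower. With si-NC 4 as the sole control, a gene lacks overlap whenever that library is highest or lowest, so no count is read there. Pairs with both transcripts present numbered 9, 7 and 6 at 0.5, 2 and 5 FPKM. ITGB3 was too low for the filter of the FPKM fits, and DESeq2 gave it no adjusted p. Of 168 log2 fold changes of subunits under alternatives, 144 kept direction and side of the threshold, 5 passed it in the same direction and 19 reversed, 1 of them also past the threshold (ITGA2 with si-NC 4 as the sole control). With the length trend removed, ITGA2 was at -0.052, ITGA3 at -0.057, ITGA6 at -0.019 and ITGB4 at -0.041. With si-NC 4 as the sole control, ITGA2 was at -0.41, ITGA3 at -0.063, ITGA6 at -0.064, ITGAV at -0.043, ITGB3 at -0.14 and ITGB4 at -0.0080. With 1 library left out, ITGA2 ran from -0.13 to 0.34, ITGA3 from -0.0059 to 0.19, ITGA5 from -0.095 to 0.026, ITGA6 from -0.030 to 0.11 and ITGB3 from -0.037 to 0.26. On the FPKM scale ITGA5 was at 0.031 with a pseudocount of 1, with or without the filter, and at 0.034 with 0.1. The cause of these shifts was not tested. ITGB3, at 29 to 69 counts, had the fewest reads of the subunits and the largest SE in the main fit (0.21, with ITGA2 next at 0.19). The part of depth in this was not tested.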
